A study of Arabidopsis thaliana with 6 samples.

Results

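Histone transcripts were measured by RNA-seq in dissected shoot apices of *val1*, *val2*-labelled and WT Arabidopsis plants, and are described here class by class. The set holds 41 of the 24292 genes in the table of counts. It was put together from gene identifiers and histone class, with no measured value in the rule. Earlier results of these data were known when the members were chosen, so the choice was not blind to them. It has 27 replication-coupled genes (8 H4, 5 H3.1, 4 H2A and 10 H2B genes), 11 replacement variants (3 H3.3, 2 H2A.X, 3 H2A.W and 3 H2A.Z genes) and 3 genes of the linker histone H1. Of these, 40 had enough counts to be tested among 21140 genes. The *val1* plants carried the T-DNA allele *val1-2*, the plants labelled *val2* carried the T-DNA allele *val2-1*, and WT was Col-0, the background of both mutants, so each mutant is represented by 1 insertion line. All plants were 6 wk of age, had grown at 22 °C in SD (8 h light, 16 h dark) and gave 0.5 g of apices for a library, and each genotype has 2 libraries. The sources used here do not say whether the replicates were separate sowings, so p-values measure only the spread between these libraries.

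Histones package DNA into nucleosomes, in which an H3-H4 tetramer is flanked by H2A-H2B dimers, while H1 binds the linker DNA between nucleosomes. The replication-coupled genes are transcribed mainly in S phase, when each new DNA copy needs a full set of core histones, and the H3.1 they encode is loaded by the chaperone complex CAF-1. H3.3 and H2A.Z are made throughout the cell cycle and exchanged outside replication. H3.3 marks transcribed genes, and H2A.Z surrounds start sites and is loaded by the SWR1 complex. H2A.W is kept in heterochromatin and H2A.X is phosphorylated at DNA breaks. All of these are grouped here as replacement variants, and the timing of H2A.W and H2A.X was not tested. Plant replication-coupled mRNAs are polyadenylated, unlike those of animals, so a poly(A) library captures them. VAL1 and VAL2 are B3-domain repressors that bind the RY motif and recruit Polycomb and histone deacetylase complexes to their targets.

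The 6 libraries held 22635808 to 33474422 counts, and histone genes took 0.320% and 0.308% of the counts in *val1*, 0.263% and 0.259% in the *val2*-labelled libraries and 0.198% and 0.212% in WT. Levels below are CPM, counts scaled to an equal library total after TMM scaling, and differences are log2 fold changes with their SE. *VAL1* had 12.5 and 15.7 CPM in *val1*, 32.7 and 39.0 CPM in the *val2*-labelled libraries and 40.3 and 55.4 CPM in WT. It was lower in *val1* than in WT (-1.76 ± 0.17 SE, adjusted p = 5.16e-05). *VAL2* had 36.1 and 39.1 CPM in *val1*, 149.8 and 164 CPM in the *val2*-labelled libraries and 39.9 and 40.9 CPM in WT. The *val2*-labelled libraries thus had more *VAL2* mRNA than WT (1.96 ± 0.081 SE, adjusted p = 6.15e-06). The label was therefore not matched by a lower level of the gene, and these libraries are named by their label throughout. Where these and the *val1* libraries are called mutants below, the word follows the label and says nothing about *VAL2* function. Of the markers of the apex, the meristem genes *STM*, *KNAT1* and *CLV1* were present, with *STM* at 65.4 and 64.8 CPM in *val1*, 70.7 and 66.0 CPM in the *val2*-labelled libraries and 58.3 and 58.0 CPM in WT, but *CLV3* had at most 6 counts in a library, and *LFY* and *AP1*, which mark young flowers, had at most 19 and 6. Of these markers, *CLV1* was called higher in *val1* (0.33). Markers of mature tissue moved as well, beside 23.6% of all genes called higher and 22.1% lower in *val1*, and 8.69% and 10.0% in the *val2*-labelled libraries. The summed level of 6 leaf mesophyll markers was 16600 to 17578 CPM in *val1*, 12313 to 13279 CPM in the *val2*-labelled libraries and 15786 to 16754 CPM in WT, with 3 of 6 called higher in *val1* and 5 of 6 called lower in the *val2*-labelled libraries. Of 5 vascular markers, 4 were called lower in *val1* and 2 in the *val2*-labelled libraries, with sums of 81.0 to 114 CPM, 99.8 to 105 CPM and 151 to 158 CPM in *val1*, the *val2*-labelled libraries and WT. Of 3 epidermis markers, 2 were called higher in *val1*. Of the called genes, the mesophyll genes *RBCS1A* and *LHCB2.1* differed from WT by 0.21 and 0.28 in *val1* and by -0.25 and -0.45 in the *val2*-labelled libraries. The xylem genes *XCP1* and *XCP2* differed by -0.85 and -0.76 in *val1* and by -1.02 and -0.68 in the *val2*-labelled libraries. In *val1*, the epidermis genes *ATML1* and *PDF2* differed by 0.36 and 0.45. The part of these changes in the histone results was not tested, and in whole apices more dividing cells and more histone mRNA per cell cannot be told apart.

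The gene classes differ in how alike their members are. All 8 H4 genes encode 1 protein of 103 residues and all 5 H3.1 genes encode 1 protein of 136, so within these classes the libraries report on gene copies and not on different proteins. H3.1 and the H3.3 protein of *HTR5* and *HTR8* differ at 4 of 135 residues, counted without the first methionine. By contrast, the 4 H2A, 10 H2B and 3 H1 genes each encode a different protein. The copies can still be told apart by their reads: at most 27.9% of the 50-base words of an H4 transcript occur elsewhere in the genome, and at most 2.22% of its 150-base words, the length of a read. The same holds for other classes, at 2.44% of 50-base words or less. *HTA12* and *HTB10* lie on opposite strands of the same stretch of chromosome 5, and *HTA3*, *HTA9*, *HTA13*, *HTB9*, *H1.1* and *H1.2* also overlap a gene on the opposite strand, while *HTR3* overlaps AT3G27380 on its own strand. The sources used here do not say whether the counting used strand, so reads of such pairs cannot be told apart with certainty.

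The promoters of histone genes carry known short elements, and 5 promoters are shown here. Those of *HTR2*, *HTA10* and *HTB2* belong to genes that were higher in both mutants, while *HTR5* and *HTB6*, which were not, hold the same elements. Promoters were read as the 250 bases before and 50 bases after the annotated start, from the RefSeq annotation of TAIR10.1, and all 41 genes were found in it. The octamer CGCGGATC, known from plant H3 and H4 promoters, was in 10 of the 41 promoters (24.4%), against 0.146% of 27443 protein-coding promoters, and the hexamer ACGTCA was in 13 of 41 (31.7%), against 9.19%, searching both strands. The octamer was in 3 of 5 H3.1, 2 of 4 H2A and 2 of 8 H4 promoters and in none of the 10 H2B promoters, whereas the hexamer was in 9 of the 10 H2B promoters. E2F motifs (TTTCCCGC or TTTGGCGC) were in the promoters of 2 H4 genes, AT3G45930 and AT3G46320 (4.88% of 41, against 1.21%). These 2 promoters are near copies of each other, with TTTGGCGC at -237 in both, so the matches are not independent. The RY motif CATGCA was in 2 of 41 (4.88%), those of *HTA2* and the H4 gene AT5G59970, against 9.72%. A match is a description of the letters in this window and does not show that a factor binds there. The sequences below run 5′ to 3′ on the strand of the gene, with octamers and hexamers in capitals and no overlap between motifs. HTR2 (H3.1, minus strand, chr1:2972285-2972584) and HTA10 (H2A, plus strand, chr1:18926561-18926860) each hold 2 octamers, HTR5 (H3.3, minus strand, chr4:18558896-18559195) holds 1, HTB2 (H2B, minus strand, chr5:7652665-7652964) holds 2 hexamers and HTB6 (H2B, plus strand, chr3:19889047-19889346) holds 1.
HTR2: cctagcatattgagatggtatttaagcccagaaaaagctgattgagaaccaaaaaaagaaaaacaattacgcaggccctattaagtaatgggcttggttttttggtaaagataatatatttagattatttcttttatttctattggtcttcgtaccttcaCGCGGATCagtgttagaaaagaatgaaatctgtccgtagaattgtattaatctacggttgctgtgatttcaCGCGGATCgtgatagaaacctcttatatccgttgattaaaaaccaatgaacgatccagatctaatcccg
HTA10: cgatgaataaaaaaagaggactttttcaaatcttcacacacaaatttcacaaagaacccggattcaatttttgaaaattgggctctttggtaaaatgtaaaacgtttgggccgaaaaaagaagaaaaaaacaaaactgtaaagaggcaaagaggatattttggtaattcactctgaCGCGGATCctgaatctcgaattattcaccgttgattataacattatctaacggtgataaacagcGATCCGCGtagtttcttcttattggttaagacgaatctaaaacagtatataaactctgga
HTR5: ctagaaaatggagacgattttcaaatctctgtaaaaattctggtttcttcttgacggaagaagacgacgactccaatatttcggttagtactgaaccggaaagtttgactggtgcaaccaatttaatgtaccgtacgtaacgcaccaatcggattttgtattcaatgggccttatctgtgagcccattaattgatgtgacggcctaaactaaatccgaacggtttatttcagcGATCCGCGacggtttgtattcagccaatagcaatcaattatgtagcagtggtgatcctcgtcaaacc
HTB2: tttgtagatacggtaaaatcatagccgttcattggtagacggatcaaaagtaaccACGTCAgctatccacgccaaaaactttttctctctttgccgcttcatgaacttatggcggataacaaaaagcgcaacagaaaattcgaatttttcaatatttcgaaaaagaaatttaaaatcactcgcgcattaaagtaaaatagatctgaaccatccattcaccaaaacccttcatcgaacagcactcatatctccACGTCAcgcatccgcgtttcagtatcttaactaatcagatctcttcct
HTB6: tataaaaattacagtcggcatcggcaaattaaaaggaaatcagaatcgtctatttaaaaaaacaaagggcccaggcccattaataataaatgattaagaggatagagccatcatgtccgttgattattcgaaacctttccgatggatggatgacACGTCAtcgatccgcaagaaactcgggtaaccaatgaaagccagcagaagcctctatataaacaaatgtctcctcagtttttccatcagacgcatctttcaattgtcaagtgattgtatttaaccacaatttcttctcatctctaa

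**Figure D1:**
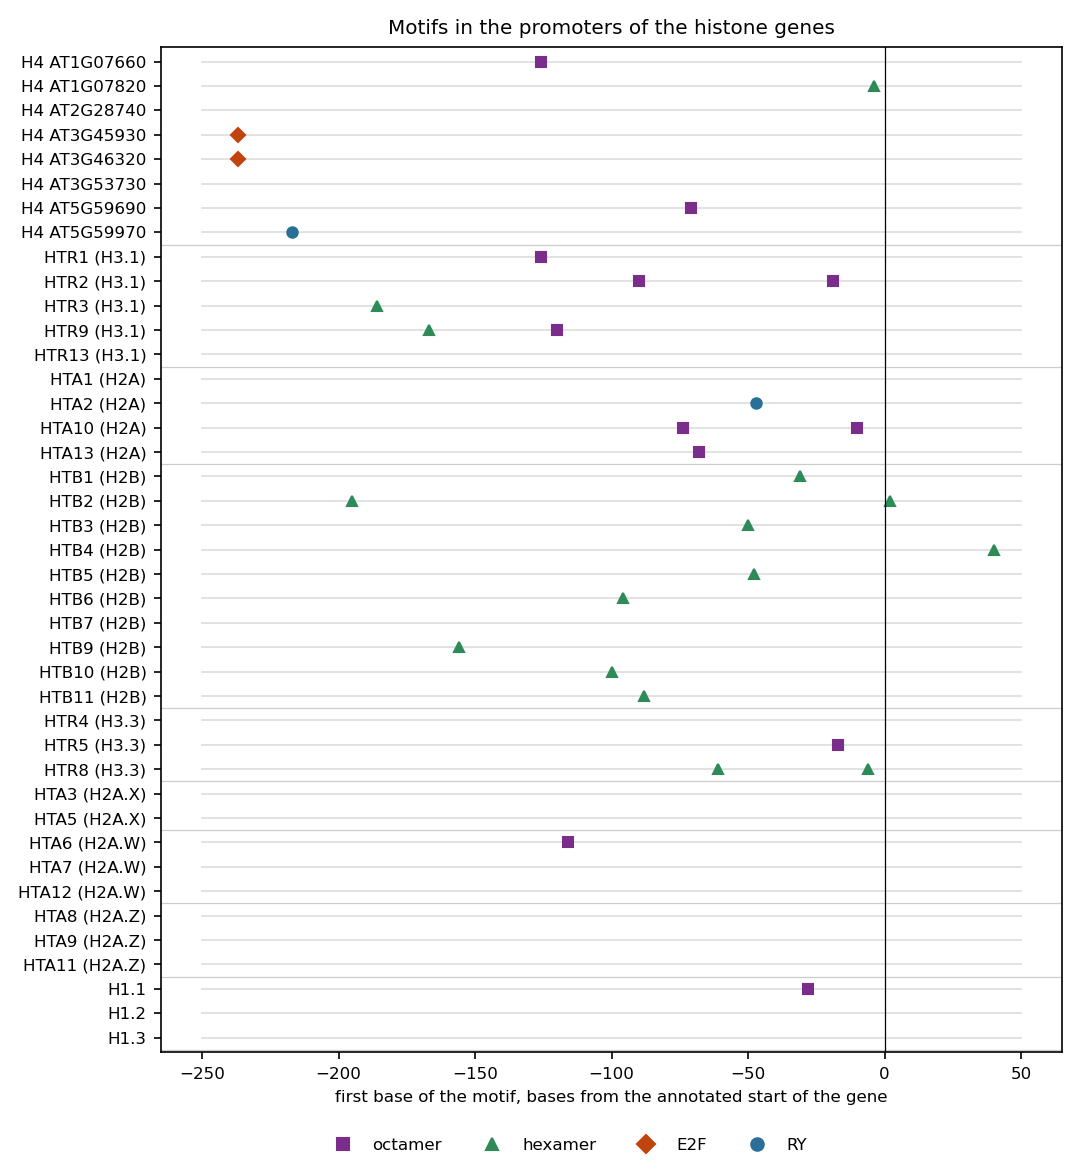
Position of motifs in the promoters of the 41 histone genes. Each grey line is 1 promoter, from 250 bases before to 50 bases after the annotated start (x axis, bases from the start), and symbols mark the first base of an octamer, hexamer, E2F or RY match on either strand. Hexamers fall in 9 of 10 H2B promoters and octamers in 3 of 5 H3.1 promoters.

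Most replication-coupled genes were higher in *val1* and in the *val2*-labelled libraries than in WT, while the replacement variants were split. In *val1*, 28 of the 40 tested histone genes were called higher (adjusted p below 0.05 in edgeR's quasi-likelihood test), against 23.6% of all genes tested, and 2 were called lower, against 22.1%. The called genes were 22 of 26 replication-coupled genes, 4 of 11 replacement variants and 2 of 3 H1 genes, and those called lower were *HTB6* and the H2A.Z gene *HTA9*. The median log2 fold change was 0.59 over the replication-coupled genes, 0.19 over the replacement variants and 0.038 over all genes. Only the H4 gene AT3G46320 was higher by at least 2-fold, against 5.89% of all genes. Its log2 fold change of 1.01 lay near that cut, and was 0.98 with DESeq2 and 0.92 without WT replicate 1. No histone gene was called lower by at least 2-fold, against 9.81%. In the *val2*-labelled libraries, 24 of 40 were called higher, against 8.69% of all genes, and 1 was called lower (*H1.3*), against 10.0%. These 24 were 20 of 26 replication-coupled genes, with a median of 0.42, and 4 of 11 replacement variants, with a median of 0.18, beside a median of 0.00016 over all genes. The changes were under 2-fold for every histone gene, the highest being 0.92, whereas 0.918% of all genes were called higher and 2.27% lower by at least 2-fold. Both comparisons use the same WT libraries.

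Over 15 refits with other settings or 1 library left out, at the same threshold of an adjusted p below 0.05, 25 of the 30 calls in *val1* were never lost, and the others were *HTR3* (adjusted p up to 0.247, without WT replicate 1), *HTA1* (up to 0.149, without *val1* replicate 1), *HTA9* (up to 0.72, with library size scaling), *HTB3* (up to 0.0614, with DESeq2) and *HTA11* (0.0555, without WT replicate 1). In the *val2*-labelled libraries, 12 of 25 calls were never lost in these refits, and the number called higher fell to 12 without WT replicate 1, to 15 without *val2* replicate 1 and to 14 without *val2* replicate 2. WT replicate 1 was below WT replicate 2 in 25 of 26 replication-coupled genes (median log2 ratio -0.18) and in 10 of 11 replacement variants, so it stood apart from its partner in the same direction as WT from the mutants. Scaling by library size alone moved the median of all genes in *val1* to 0.25 and that of the histone genes to 0.74. A change of scaling shifts all genes by nearly the same amount. The distance of 0.48 between these medians, equal to that with TMM, is therefore no check of the result. Of all genes called in *val1*, 51.6% were higher with TMM, 72.0% with library size and 67.4% on log2(TPM + 1). In the *val2*-labelled libraries these shares were 46.5%, 63.7% and 62.4%, and in *val1* against the *val2*-labelled libraries 49.6%, 66.7% and 61.5%.

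**Figure D2:**
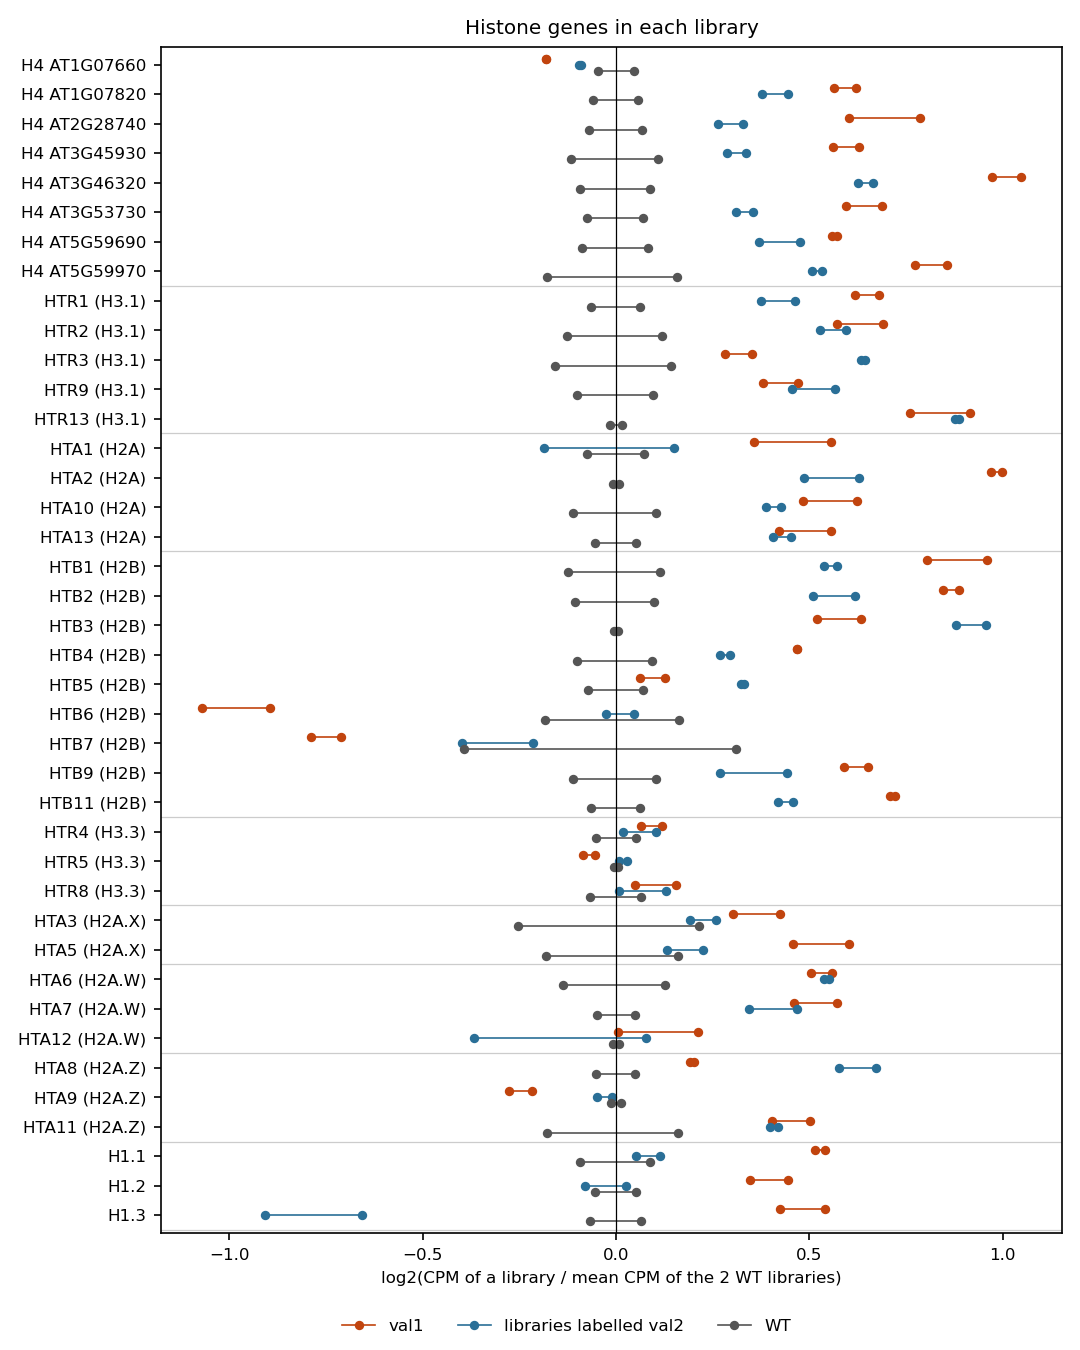
Level of the 40 tested histone genes in each library. The x axis is log2 of the CPM of a library over the mean CPM of the 2 WT libraries, each point is 1 library (*val1*, *val2*-labelled, WT) and a line joins the 2 replicates. Most H4, H3.1, H2A and H2B points of *val1* and the *val2*-labelled libraries lie to the right of both WT points. The H3.3 points lie within 0.16 of 0, and *HTB6* lies far to the left in *val1*.

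The 8 H4 genes encode the histone that pairs with every H3 variant. Of these, 7 were called higher in *val1*, against 23.6% of all genes, and 5 in the *val2*-labelled libraries, against 8.69%. The 7 had log2 fold changes of 0.56 to 1.01 in *val1*. The most abundant, AT5G59690, had 115 and 114 CPM in *val1*, 99.9 and 107 CPM in the *val2*-labelled libraries and 72.7 and 81.9 CPM in WT. Its difference from WT was 0.56 ± 0.083 (SE, adjusted p = 0.000593) in *val1* and 0.42 ± 0.083 (SE, adjusted p = 0.00955) in the *val2*-labelled libraries, and all 4 mutant libraries lay above both WT libraries. AT3G46320, the histone gene with the largest rise in *val1*, had 41.6 and 39.5 CPM in *val1*, 31.04 and 31.9 CPM in the *val2*-labelled libraries and 18.9 and 21.4 CPM in WT. Its difference was 1.01 ± 0.091 (SE, adjusted p = 3.29e-05) in *val1* and 0.64 ± 0.091 (SE, adjusted p = 0.00262) in the *val2*-labelled libraries. AT5G59970 had 55.2 and 52.1 CPM in *val1*, 44.2 and 43.4 CPM in the *val2*-labelled libraries and 27.0 and 34.1 CPM in WT. The groups were again apart, by 0.81 ± 0.11 (SE, adjusted p = 0.000337) in *val1* and 0.52 ± 0.11 (SE, adjusted p = 0.0124) in the *val2*-labelled libraries. AT1G07820 had 81.6 and 78.4 CPM in *val1*, 69.0 and 72.2 CPM in the *val2*-labelled libraries and 50.9 and 55.2 CPM in WT. AT3G53730 had 60.5 and 56.7 CPM in *val1*, 46.5 and 48.0 CPM in the *val2*-labelled libraries and 35.7 and 39.4 CPM in WT. For both, every mutant library was above WT. AT2G28740 had 44.0 and 38.7 CPM in *val1*, 32.0 and 30.6 CPM in the *val2*-labelled libraries and 24.3 and 26.7 CPM in WT. AT3G45930 had 36.4 and 34.8 CPM in *val1*, 28.8 and 29.8 CPM in the *val2*-labelled libraries and 21.8 and 25.4 CPM in WT. These 4 genes were called higher in *val1* by 0.59 to 0.70, and AT1G07820 and AT3G53730 also in the *val2*-labelled libraries, by 0.41 and 0.33. Against WT, the calls of the *val2*-labelled libraries for AT1G07820 (adjusted p up to 0.0561), AT3G53730 (up to 0.144), AT5G59690 (up to 0.0687) and AT5G59970 (up to 0.0747) were each lost in 2 to 4 of the 6 fits with a library left out, and that of AT3G46320 in none. AT2G28740 and AT3G45930 missed the threshold there (adjusted p = 0.0626 and 0.0558). The exception was AT1G07660, with 28.3 and 28.4 CPM in *val1*, 30.1 and 30.2 CPM in the *val2*-labelled libraries and 31.1 and 33.2 CPM in WT. Both mutants lay slightly below WT, by a difference of -0.18 ± 0.081 (SE, adjusted p = 0.0965) in *val1*, which had the opposite sign when libraries were scaled by size alone (0.033). Its product is identical to that of the other copies, and its promoter holds an octamer.

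All 5 H3.1 genes, which encode the H3 placed behind the replication fork, were called higher in *val1* and in the *val2*-labelled libraries. Over all genes, 23.6% and 8.69% were called higher. The call of *HTR3* in *val1* was lost in most refits. *HTR1* (AT5G65360), the most abundant, had 90.4 and 86.6 CPM in *val1*, 73.2 and 77.8 CPM in the *val2*-labelled libraries and 54.0 and 58.9 CPM in WT. The difference was 0.65 ± 0.078 (SE, adjusted p = 0.000179) in *val1* and 0.42 ± 0.078 (SE, adjusted p = 0.00781) in the *val2*-labelled libraries. *HTR2* (AT1G09200) had 77.4 and 71.3 CPM in *val1*, 69.1 and 72.4 CPM in the *val2*-labelled libraries and 43.9 and 52.0 CPM in WT. It rose by 0.63 ± 0.094 (SE, adjusted p = 0.000666) in *val1* and 0.56 ± 0.094 (SE, adjusted p = 0.00533) in the *val2*-labelled libraries. *HTR13* (AT5G10390) had the largest rise of the class, with 39.9 and 35.9 CPM in *val1*, 39.1 and 38.9 CPM in the *val2*-labelled libraries and 21.4 and 20.9 CPM in WT. Its difference was 0.84 ± 0.086 (SE, adjusted p = 6.8e-05) in *val1* and 0.88 ± 0.086 (SE, adjusted p = 0.000504) in the *val2*-labelled libraries. Its neighbour *HTR9* (AT5G10400), which lies next to it on chromosome 5, had 58.8 and 62.6 CPM in *val1*, 61.9 and 67.0 CPM in the *val2*-labelled libraries and 42.1 and 48.3 CPM in WT. The rise was smaller there, 0.42 ± 0.089 (SE, adjusted p = 0.00413) in *val1* and 0.51 ± 0.088 (SE, adjusted p = 0.00589) in the *val2*-labelled libraries. *HTR3* (AT3G27360) differed in order, with 24.7 and 26.0 CPM in *val1*, 31.8 and 31.5 CPM in the *val2*-labelled libraries and 18.2 and 22.4 CPM in WT. The *val2*-labelled libraries were highest (0.64 ± 0.11 SE, adjusted p = 0.00578). The call in *val1* (0.32 ± 0.11 SE, adjusted p = 0.0434) was lost in 9 of the 15 refits, among them DESeq2 (adjusted p = 0.113) and 5 of the 6 with a library left out (up to 0.247, without WT replicate 1). Of the other calls, that of *HTR1* in the *val2*-labelled libraries was lost with 2 libraries left out in turn (adjusted p up to 0.0576). In every one of the 5 genes, the 4 *val1* and *val2*-labelled libraries lay above both WT libraries. The share of all genes with such a separation was not counted, here or for the other classes.

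The 4 genes of canonical H2A, the partner of H2B in the nucleosome, were called higher in *val1*, against 23.6% of all genes. In the *val2*-labelled libraries 3 of them were called higher, against 8.69%. *HTA10* (AT1G51060), the most abundant, had 96.9 and 88.0 CPM in *val1*, 82.2 and 84.6 CPM in the *val2*-labelled libraries and 58.3 and 67.6 CPM in WT. It rose by 0.55 ± 0.091 (SE, adjusted p = 0.0011) in *val1* and 0.41 ± 0.091 (SE, adjusted p = 0.0162) in the *val2*-labelled libraries. *HTA2* (AT4G27230) had 43.1 and 42.2 CPM in *val1*, 33.3 and 30.2 CPM in the *val2*-labelled libraries and 21.5 and 21.7 CPM in WT. Its rise in *val1* was the second largest of all histone genes, 0.98 ± 0.085 (SE, adjusted p = 2.48e-05), against 0.56 ± 0.085 (SE, adjusted p = 0.00355) in the *val2*-labelled libraries. *HTA13* (AT3G20670) had 42.7 and 46.9 CPM in *val1*, 43.7 and 42.3 CPM in the *val2*-labelled libraries and 30.7 and 33.1 CPM in WT and rose by 0.49 in *val1* and 0.43 in the *val2*-labelled libraries. The calls of *HTA10* (adjusted p up to 0.104) and *HTA13* (up to 0.0648) in the *val2*-labelled libraries were lost in 3 and 2 of the 6 fits with a library left out. *HTA1* (AT5G54640), the least abundant, had 16.9 and 14.7 CPM in *val1*, 12.7 and 10.08 CPM in the *val2*-labelled libraries and 10.9 and 12.1 CPM in WT. It was called in *val1* (0.46 ± 0.14 SE, adjusted p = 0.0294). This call was lost in 3 of the 6 fits with a library left out (log2 fold change 0.36 to 0.56) and in 1 of the 9 other alternatives. The *val2*-labelled libraries overlapped WT (95% interval of the log2 fold change -0.34 to 0.32).

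The 10 H2B genes were the most varied replication-coupled class. Of the 9 tested, 6 were called higher and 1 lower in *val1*, against 23.6% and 22.1% of all genes. *HTB4* (AT5G59910), the most abundant, had 208 and 208 CPM in *val1*, 184 and 181 CPM in the *val2*-labelled libraries and 140.1 and 160.2 CPM in WT. It rose by 0.47 ± 0.082 (SE, adjusted p = 0.00164) in *val1* and 0.28 ± 0.082 (SE, adjusted p = 0.0445) in the *val2*-labelled libraries. The second call was lost in 6 alternatives, with adjusted p up to 0.226 without WT replicate 1. *HTB2* (AT5G22880) had 164 and 159 CPM in *val1*, 126 and 136 CPM in the *val2*-labelled libraries and 82.3 and 94.9 CPM in WT. Its rise was 0.86 ± 0.089 (SE, adjusted p = 6.86e-05) in *val1* and 0.56 ± 0.088 (SE, adjusted p = 0.00409) in the *val2*-labelled libraries. *HTB1* (AT1G07790) had 54.5 and 48.9 CPM in *val1*, 40.6 and 41.6 CPM in the *val2*-labelled libraries and 25.7 and 30.3 CPM in WT. Its rise of 0.88 ± 0.099 (SE, adjusted p = 0.000118) in *val1* was the largest of the class. *HTB9* (AT3G45980) had 125 and 119 CPM in *val1*, 108 and 95.7 CPM in the *val2*-labelled libraries and 73.5 and 85.3 CPM in WT. *HTB11* (AT3G46030) had 118 and 117 CPM in *val1*, 98.5 and 95.9 CPM in the *val2*-labelled libraries and 68.6 and 74.9 CPM in WT. The 2 genes rose by 0.62 and 0.71 in *val1* and by 0.36 and 0.44 in the *val2*-labelled libraries. The second call of *HTB9* was lost in 4 of 15 refits (adjusted p up to 0.19, without *val2* replicate 1). *HTB3* (AT2G28720) was scarce, at 6.00 and 6.49 CPM in *val1*, 8.12 and 7.69 CPM in the *val2*-labelled libraries and 4.17 and 4.20 CPM in WT. It had the largest rise of any histone gene in the *val2*-labelled libraries (0.92 ± 0.15 SE, adjusted p = 0.00447).

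*HTB6* (AT3G53650) went the other way in *val1*. It had 5.39 and 4.77 CPM in *val1*, 9.84 and 10.3 CPM in the *val2*-labelled libraries and 8.82 and 11.2 CPM in WT, so both *val1* libraries lay below all the others, by -0.99 ± 0.16 (SE, adjusted p = 0.000966) against WT, and the *val2*-labelled libraries overlapped WT (95% interval -0.33 to 0.35). *HTB7* (AT3G09480) had 1.78 and 1.88 CPM in *val1*, 2.34 and 2.66 CPM in the *val2*-labelled libraries and 2.34 and 3.81 CPM in WT, also lowest in *val1* but without passing the test (-0.75 ± 0.29 SE, adjusted p = 0.0585). *HTB5* (AT2G37470) had 37.8 and 39.6 CPM in *val1*, 45.3 and 45.6 CPM in the *val2*-labelled libraries and 34.4 and 38.0 CPM in WT. It did not pass in *val1* (95% interval -0.090 to 0.28) and was called higher in the *val2*-labelled libraries (0.33 ± 0.080 SE, adjusted p = 0.0237, lost without any 1 of the WT or *val2* libraries, with adjusted p up to 0.14). *HTB10* (AT5G02570) had 0 counts in both *val1* libraries, 0 and 3 counts in the *val2*-labelled libraries and 0 and 5 in WT, and was not tested. The 6 genes that rose in *val1* encode proteins of 145 to 151 residues and the other 4 encode proteins of 126 to 138, a grouping noticed after the values were seen. Every H2B promoter except that of *HTB7* holds a hexamer, *HTB6* included.

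The 3 H3.3 genes, which encode the H3 of transcribed chromatin, differed little between genotypes. *HTR5* (AT4G40040), the most abundant histone gene, had 256 and 251 CPM in *val1*, 272 and 268 CPM in the *val2*-labelled libraries and 266 and 267 CPM in WT. *HTR4* (AT4G40030), beside it on chromosome 4, had 192 and 185 CPM in *val1*, 189.7 and 179 CPM in the *val2*-labelled libraries and 183 and 170.1 CPM in WT. *HTR8* (AT5G10980) had 108 and 100.1 CPM in *val1*, 106 and 97.3 CPM in the *val2*-labelled libraries and 92.4 and 101 CPM in WT. With edgeR, 0 of 3 were called in *val1* and 0 of 3 in the *val2*-labelled libraries. None was at an unadjusted p below 0.05 in either, and 0 were called with DESeq2. Of all 21140 genes tested, 11479 were not called in *val1* and 17184 were not in the *val2*-labelled libraries. A count of 0 of 3 therefore says little by itself. The 95% intervals of the log2 fold change in *val1* were -0.22 to 0.081 for *HTR5*, -0.080 to 0.27 for *HTR4* and -0.088 to 0.29 for *HTR8*. In the *val2*-labelled libraries they were -0.13 to 0.17, -0.11 to 0.24 and -0.12 to 0.26. The log2 fold changes of all 5 H3.1 genes lie above the intervals of the same comparison, but their own intervals do not all do so. In *val1*, those of *HTR3* (0.065 to 0.57) and *HTR9* (0.22 to 0.63) overlap those of *HTR4* and *HTR8*. The interval of *HTR3* also overlaps that of *HTR5*. In the *val2*-labelled libraries, that of *HTR1* (0.24 to 0.60) overlaps that of *HTR8*. With scaling by library size alone, *HTR4* and *HTR8* were called higher in *val1* (adjusted p = 0.0102 and 0.0105) and the sign of *HTR5* turned (0.14, against -0.071 with TMM). That scaling put the median of all genes at 0.25.

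The H2A variants did not move as 1 group. Of the H2A.W genes, whose product packs heterochromatin, *HTA6* (AT5G59870) had 85.3 and 82.2 CPM in *val1*, 84.2 and 84.9 CPM in the *val2*-labelled libraries and 52.7 and 63.3 CPM in WT. It rose by 0.53 ± 0.092 (SE, adjusted p = 0.00157) in *val1* and 0.54 ± 0.092 (SE, adjusted p = 0.00554) in the *val2*-labelled libraries. *HTA7* (AT5G27670) had 55.1 and 59.6 CPM in *val1*, 55.4 and 50.8 CPM in the *val2*-labelled libraries and 38.7 and 41.4 CPM in WT. Its rise was 0.52 ± 0.083 (SE, adjusted p = 0.000973) in *val1* and 0.41 ± 0.083 (SE, adjusted p = 0.0111) in the *val2*-labelled libraries. Both genes were above WT in all 4 mutant libraries, and the call of *HTA7* in the *val2*-labelled libraries was lost without WT replicate 1 or *val2* replicate 1 (adjusted p up to 0.0837). *HTA12* (AT5G02560), the third, had 7.46 and 8.60 CPM in *val1*, 7.84 and 5.75 CPM in the *val2*-labelled libraries and 7.39 and 7.47 CPM in WT, which overlapped between all groups. Of the H2A.X genes, which mark DNA breaks, *HTA5* (AT1G08880) had 71.6 and 64.8 CPM in *val1*, 51.7 and 55.1 CPM in the *val2*-labelled libraries and 41.6 and 52.7 CPM in WT. It was called higher in *val1* (0.53 ± 0.11 SE, adjusted p = 0.00456), while the *val2*-labelled libraries overlapped WT. *HTA3* (AT1G54690) had 48.1 and 44.2 CPM in *val1*, 40.9 and 42.9 CPM in the *val2*-labelled libraries and 30.1 and 41.6 CPM in WT, above WT in *val1* without passing (0.36 ± 0.14 SE, adjusted p = 0.0561).

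The 3 H2A.Z genes, whose product flanks transcription start sites and is known for its part in flowering-time control in this species, gave 3 patterns. *HTA9* (AT1G52740), by far the most abundant, had 122 and 117 CPM in *val1*, 141 and 138 CPM in the *val2*-labelled libraries and 141 and 144 CPM in WT. It was called lower in *val1* (-0.25 ± 0.071 SE, adjusted p = 0.019), a call lost without either WT library or *val1* replicate 2 (adjusted p up to 0.0891), on the TPM scale and under library size scaling, where the difference was -0.033 (adjusted p = 0.72). *HTA11* (AT3G54560) had 42.7 and 45.8 CPM in *val1*, 43.2 and 42.6 CPM in the *val2*-labelled libraries and 28.6 and 36.1 CPM in WT. It was called higher in *val1* (0.45 ± 0.11 SE, adjusted p = 0.00912) and in the *val2*-labelled libraries (0.41 ± 0.11 SE, adjusted p = 0.0332). Both calls were lost without WT replicate 1 (adjusted p = 0.0555 and 0.159), and the second also without either *val2* replicate and on log2(TPM + 0.1). *HTA8* (AT2G38810) had 12.1 and 12.2 CPM in *val1*, 15.8 and 16.9 CPM in the *val2*-labelled libraries and 10.2 and 11.0 CPM in WT. It was called higher in the *val2*-labelled libraries (0.62 ± 0.11 SE, adjusted p = 0.0063), while *val1* did not pass (0.19 ± 0.11 SE, adjusted p = 0.187). The summed level of the class, in CPM per kb of transcript, was 207 and 205 in *val1*, 234 and 230.3 in the *val2*-labelled libraries and 211 and 224 in WT.

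Of the 3 linker histone genes, *H1.1* and *H1.2* set *val1* apart from the other 2 groups. *H1.1* (AT1G06760) and *H1.2* (AT2G30620) encode the main linker histones. *H1.1* had 164 and 161 CPM in *val1*, 122 and 117 CPM in the *val2*-labelled libraries and 106 and 120.0 CPM in WT. It was called higher in *val1* (0.53 ± 0.082 SE, adjusted p = 0.000822), while the *val2*-labelled libraries overlapped WT (95% interval -0.10 to 0.27). *H1.2* had 91.4 and 97.9 CPM in *val1*, 73.2 and 68.0 CPM in the *val2*-labelled libraries and 69.2 and 74.5 CPM in WT. It too was called higher in *val1* (0.40 ± 0.079 SE, adjusted p = 0.00333), and the *val2*-labelled libraries overlapped WT (95% interval -0.21 to 0.15). *H1.3* (AT2G18050), a smaller variant known to be induced by stress such as drought and low light, was scarce, at 3.77 and 4.09 CPM in *val1*, 1.78 and 1.498 CPM in the *val2*-labelled libraries and 2.94 and 2.68 CPM in WT. Its difference in *val1* did not pass (0.49 ± 0.22 SE, adjusted p = 0.102), and its fall in the *val2*-labelled libraries (-0.77 ± 0.23 SE, adjusted p = 0.0485) was lost when any 1 of the 6 libraries was left out, with adjusted p up to 0.186 without *val2* replicate 2.

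Compared directly, *val1* had more of 10 of 26 replication-coupled genes and of all 3 H1 genes than the *val2*-labelled libraries. In *val1*, 14 of 40 histone genes were called higher than in the *val2*-labelled libraries, against 17.7% of all genes, and 4 were called lower, against 18.0%. Those called higher were the H4 genes AT2G28740, AT3G45930, AT3G46320 and AT3G53730, *HTR1*, *HTA1*, *HTA2*, *HTB1*, *HTB2*, *HTB11*, *HTA5* and *H1.1*, *H1.2* and *H1.3*. By at least 2-fold, only *H1.3* was higher (5.17% of all genes) and none was lower (6.94%), with *HTB6* at -0.99 just short of it. *H1.3* differed by 1.26 ± 0.23 (SE, adjusted p = 0.00257), *H1.1* by 0.45 ± 0.082 (SE, adjusted p = 0.00281) and *H1.2* by 0.42 ± 0.079 (SE, adjusted p = 0.00312), with both *val1* libraries above both others in each. *HTA2* differed by 0.42 ± 0.083 (SE, adjusted p = 0.00389), AT2G28740 by 0.40 ± 0.094 (SE, adjusted p = 0.00975) and AT3G46320 by 0.36 ± 0.089 (SE, adjusted p = 0.0118). The genes called lower in *val1* were *HTB6* (-0.99 ± 0.16 SE, adjusted p = 0.00125), *HTA8* (-0.43 ± 0.11 SE, adjusted p = 0.0145), *HTR3* (-0.32 ± 0.11 SE, adjusted p = 0.0469) and *HTA9* (-0.22 ± 0.070 SE, adjusted p = 0.0393). Of these 18 calls, those of *HTA2*, *HTB6*, *H1.1*, *H1.2* and *H1.3* were never lost in the 15 refits, of which *H1.3* also passed the 2-fold rule. The number called higher fell to 4 without *val1* replicate 1, 6 without *val2* replicate 1 and 4 without *val2* replicate 2, and that called lower went to between 1 and 3 over the 6 libraries left out. *HTR2*, *HTR9* and *HTR13* did not pass, and the 95% intervals of their log2 differences were -0.14 to 0.28, -0.28 to 0.11 and -0.23 to 0.15.

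**Figure D3:**
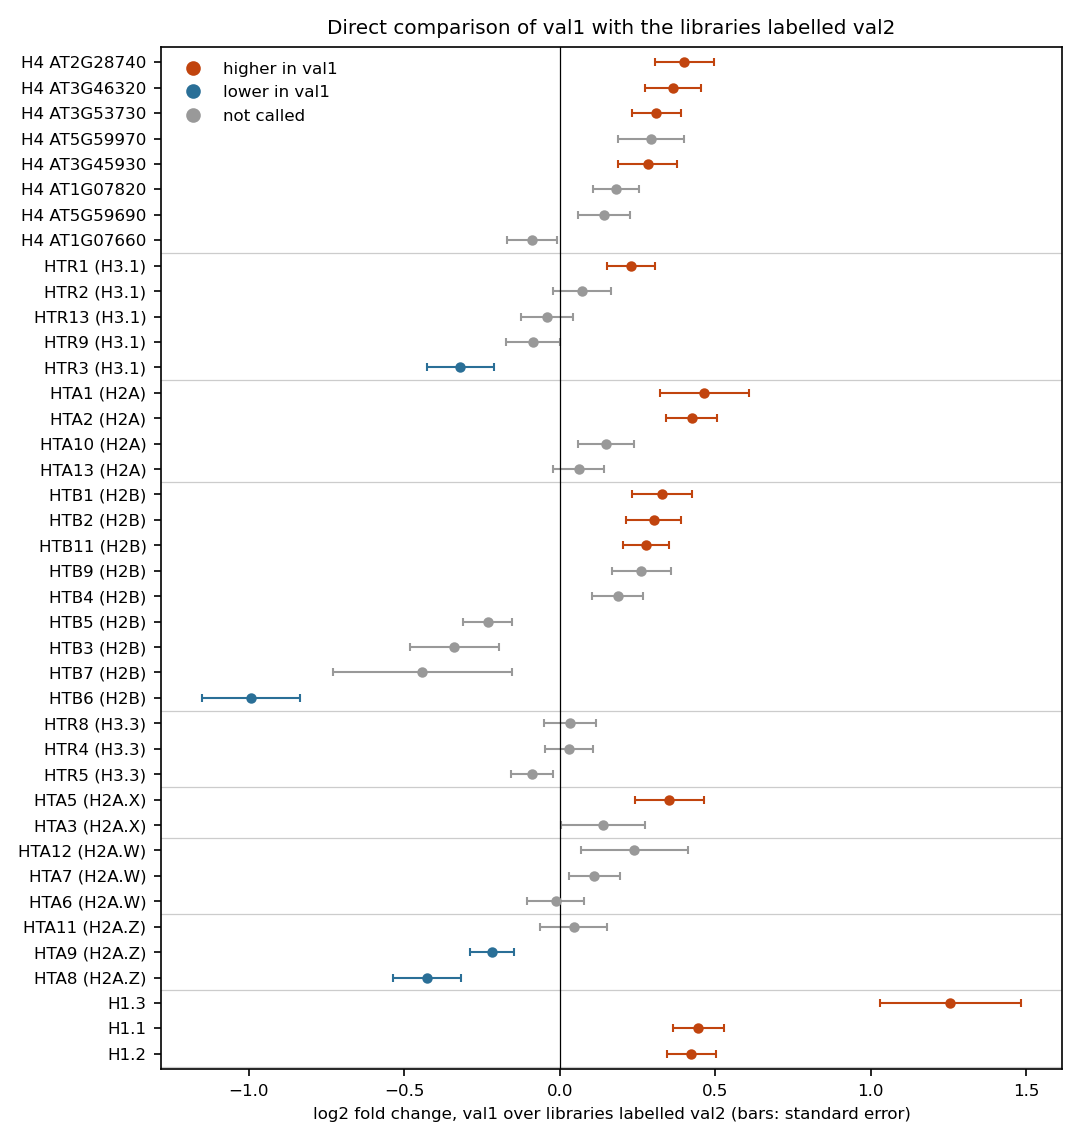
Direct comparison of *val1* with the *val2*-labelled libraries for 40 histone genes. The x axis is the log2 fold change, *val1* over the *val2*-labelled libraries, bars are SE, and colour shows genes called higher in *val1*, called lower or not called. The 3 H1 genes lie to the right of 0, with *H1.3* at 1.26, and *HTB6* lies at -0.99.

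Class sums per library show the balance between the 2 kinds of gene on 1 scale, CPM per kb of transcript. Replication-coupled genes summed to 2012 and 1949 in *val1*, 1743 and 1759 in the *val2*-labelled libraries and 1223 and 1381 in WT. Replacement variants summed to 1020.5 and 988 in *val1*, 1027 and 999.8 in the *val2*-labelled libraries and 895 and 949 in WT. Within each library, the replication-coupled sum was 1.97 and 1.97 times the replacement sum in *val1*, 1.70 and 1.76 times in the *val2*-labelled libraries and 1.37 and 1.46 times in WT, so the groups did not overlap. This ratio was 1.40 times as high in *val1* as in WT, 1.22 times in the *val2*-labelled libraries as in WT and 1.14 times in *val1* as in the *val2*-labelled libraries, and it does not depend on how libraries are scaled. H3.1 to H3.3 gave 0.751 and 0.757 in *val1*, 0.696 and 0.762 in the *val2*-labelled libraries and 0.480 and 0.540 in WT. Here *val1* and the *val2*-labelled libraries overlapped each other and stood 1.48 and 1.43 times as high as WT. H1 summed to 201 and 202 in *val1*, 151 and 143 in the *val2*-labelled libraries and 136 and 151 in WT, so only *val1* stood apart. The same held for H2A.X, with 125 and 114 in *val1*, 97.9 and 103 in the *val2*-labelled libraries and 75.2 and 99.7 in WT. No p is given for these sums, because their members were chosen with results known.

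**Figure D4:**
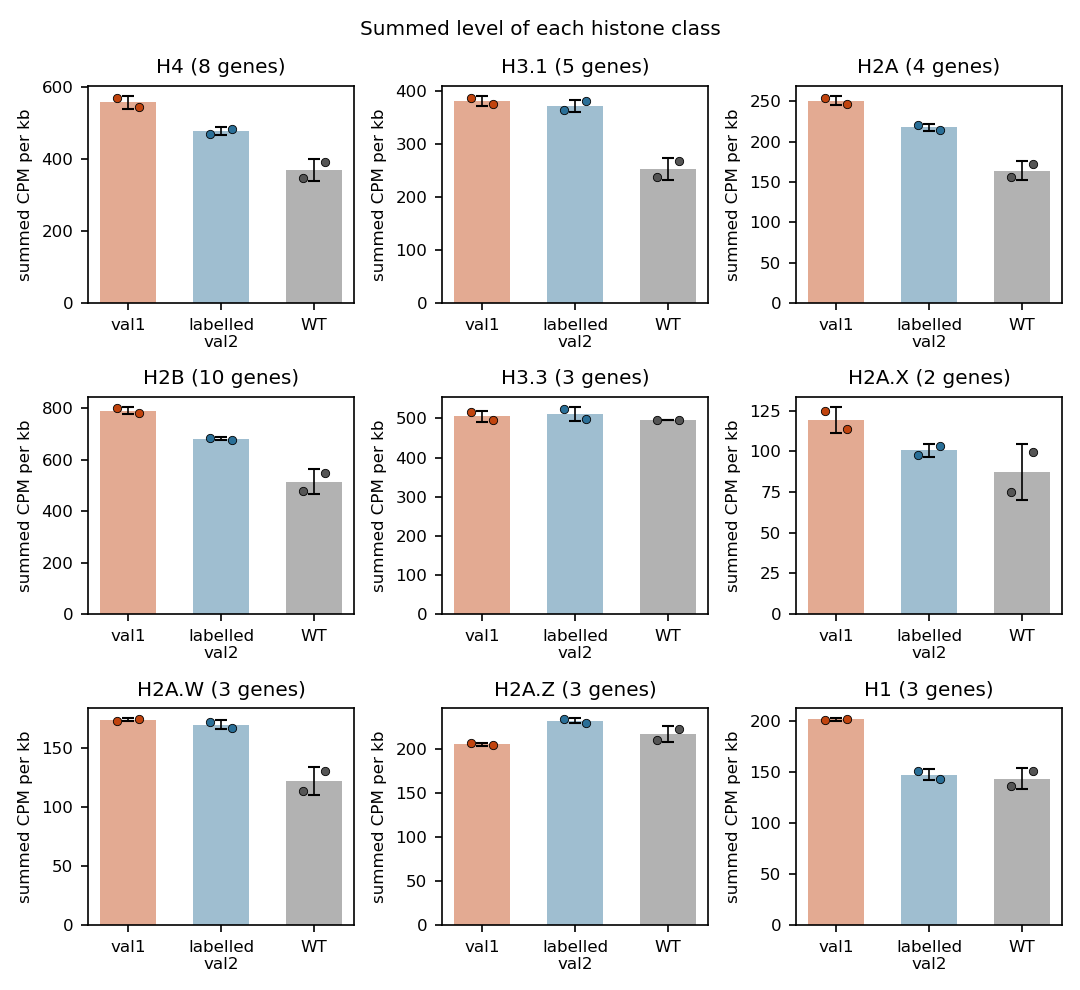
Summed level of each histone class in CPM per kb of transcript (y axis, from 0). Points are the 2 libraries of *val1*, of the *val2*-labelled ones and of WT, bars are their mean and error bars the SD (n = 2). H4, H3.1, H2A, H2B and H2A.W are higher in *val1* and in the *val2*-labelled libraries than in WT. H1 and H2A.X are higher in *val1* alone, and H3.3 is level.

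Genes of DNA replication, active in the same phase as the replication-coupled histone genes, were higher in *val1* and in the *val2*-labelled libraries than in WT. All 20 genes of a list on DNA replication were called higher in *val1* (median log2 fold change 1.1), beside 23.6% of all genes. In the *val2*-labelled libraries 19 of 20 were called higher (median 0.95), beside 8.69%. This list and the lists below were chosen with earlier results of these data known. Their counts are therefore descriptions and no independent support. *RNR1* and *TSO2*, which encode subunits of ribonucleotide reductase, rose by 0.98 and 1.2 in *val1* and by 0.94 and 0.81 in the *val2*-labelled libraries. *ORC1A* and *ORC2*, of the origin recognition complex, rose by 1.86 and 1.38 in *val1*, and in the *val2*-labelled libraries by 1.08 for *ORC2*, with *ORC1A* not passing (adjusted p = 0.185). Of 9 genes of G1/S control, 6 were called higher in *val1* and 4 in the *val2*-labelled libraries. *CYCD3;1*, a D-type cyclin, had 86.4 and 77.3 CPM in *val1*, 52.3 and 46.8 CPM in the *val2*-labelled libraries and 37.2 and 34.2 CPM in WT. The repressor genes *RBR1* and *DEL1* rose by 0.24 and 1.09 in *val1* and by 0.41 and 0.93 in the *val2*-labelled libraries. *RBR1* lost its call in *val1* without either WT library or *val1* replicate 2, with an adjusted p of 0.128 without WT replicate 2.

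Of 19 genes of G2 and mitosis, 11 were called higher in *val1* than in WT (median 0.35), beside 23.6% of all genes, while in the *val2*-labelled libraries *CDKB1;1* was called higher and *CDC20.1* lower (median 0.059), both named after their values were seen. In the direct test, 9 of 19 were higher in *val1* than in the *val2*-labelled libraries, beside 17.7% of all genes. *CYCA1;1* had 24.7 and 24.1 CPM in *val1*, 13.7 and 11.9 CPM in the *val2*-labelled libraries and 10.2 and 9.47 CPM in WT. *KNOLLE*, the syntaxin of the cell plate, had 55.8 and 53.7 CPM in *val1*, 44.6 and 42.1 CPM in the *val2*-labelled libraries and 44.3 and 41.9 CPM in WT. *HINKEL*, a kinesin of cytokinesis, had 52.8 and 55.0 CPM in *val1*, 44.7 and 46.5 CPM in the *val2*-labelled libraries and 43.3 and 41.4 CPM in WT. The kinase gene *AUR2* rose by 0.61 in *val1*, and did not pass in the *val2*-labelled libraries (0.28, adjusted p = 0.118).

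Of 18 genes of histone chaperones, 7 were called higher in *val1* (median 0.14) and 6 in the *val2*-labelled libraries (median 0.23), beside 23.6% and 8.69% of all genes. *FAS1*, the large subunit of CAF-1, had 27.1 and 37.1 CPM in *val1*, 24.2 and 25.5 CPM in the *val2*-labelled libraries and 15.3 and 13.9 CPM in WT. It rose by 1.14 ± 0.15 (SE, adjusted p = 0.000256) in *val1* and 0.77 ± 0.15 (SE, adjusted p = 0.00843) in the *val2*-labelled libraries. *FAS2*, another CAF-1 subunit, rose by 0.49 in *val1* and 0.47 in the *val2*-labelled libraries. It lost its call in *val1* without *val1* replicate 1 (adjusted p = 0.0674) or WT replicate 2 (adjusted p = 0.054). *NRP1* and *NAP1;3*, chaperones of H2A-H2B, rose by 0.29 and 0.32 in *val1* and by 0.38 and 0.30 in the *val2*-labelled libraries. All 4 of these genes lost their call in the *val2*-labelled libraries with at least 1 library left out. Of 7 genes of SWR1 and other variant remodellers, 2 were called higher and 1 lower in each mutant. In *val1* this is near the shares over all genes (23.6% higher, 22.1% lower), which were 8.69% and 10.0% in the *val2*-labelled libraries. The called genes were *DDM1*, which keeps H2A.W in heterochromatin (0.51 in *val1*, 0.78 in the *val2*-labelled libraries), *PIE1*, the motor of SWR1 (0.42 and 0.30), and *INO80*, called lower (-0.41 and -0.39). *INO80* lost its call in both mutants on the TPM scales, and *PIE1* lost its call in the *val2*-labelled libraries in 7 of 15 refits.

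**Figure D5:**
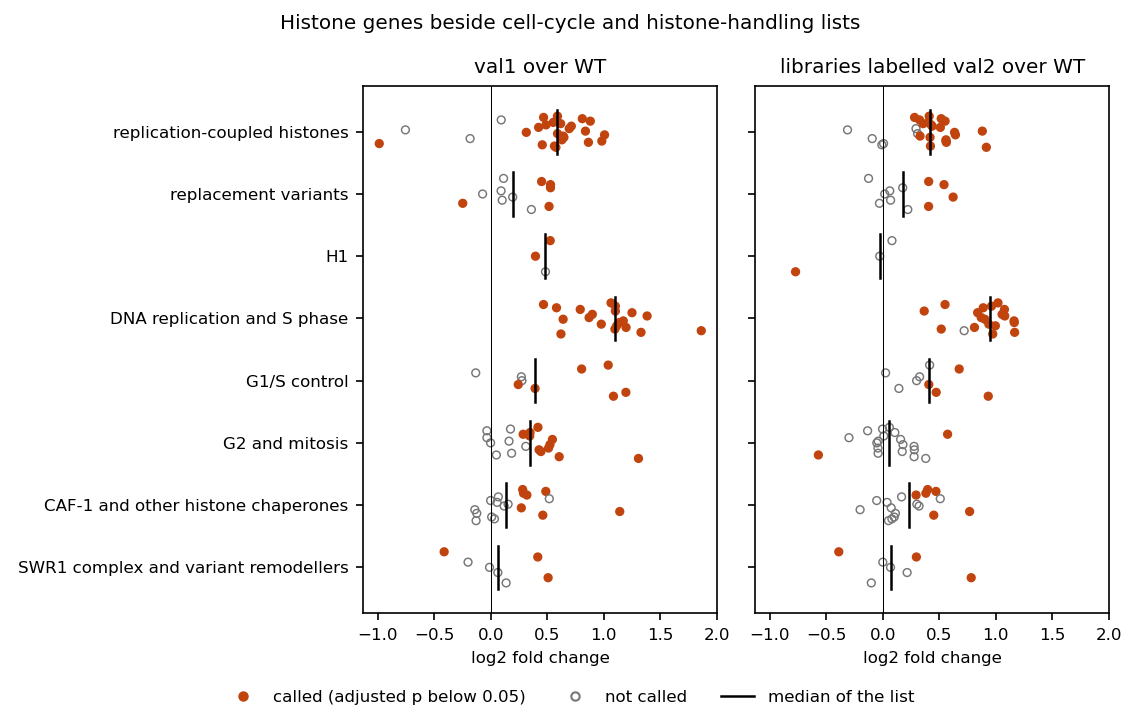
Log2 fold change of each gene (x axis) in *val1* over WT and in the *val2*-labelled libraries over WT, by group of genes. Filled points were called, open points were not, and black lines are medians. The groups were chosen with earlier results of these data known. The DNA replication genes lie furthest to the right in both panels (medians 1.1 and 0.95), ahead of the replication-coupled histone genes (0.59 and 0.42).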

How the data were processed

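RNA-seq libraries (poly(A), stranded kit, 150 bp paired-end reads) were made from 2 samples of shoot apices for each of 3 genotypes. Read trimming used cutadapt, alignment to TAIR10 used STAR and gene abundance was estimated by StringTie on Araport11. The authors' deposited estimated counts are whole numbers that prepDE.py3 derives from transcript coverage, not normalized, so their precision is not that of single reads. The deposited TPM values, scaled by the authors for length and depth, cover 16383 genes (36 of the 41 histone genes) and served as an alternative. Versions are not given in the sources used here.

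Samples were grouped by the genotype label. Entries without a gene identifier (77, at most 0.00266% of counts) were left out. In R 4.3.3, edgeR 4.0.16 fitted all 6 libraries with filterByExpr, TMM (factors 0.925 to 1.09), a mean per genotype and quasi-likelihood tests, adjusted over 21140 genes by Benjamini-Hochberg. Every adjusted p comes from this fit unless another tool is named, and a gene was called at an adjusted p below 0.05. The coefficient of variation between replicates was 10.7%, with 3 residual degrees of freedom. Summed levels used transcript lengths of TAIR10.1. Scripts were tested on simulated data. Alternatives were DESeq2 1.42.0, other scaling, filters and samples, a replicate block, limma 3.58.1 on log2(TPM + 1) or log2(TPM + 0.1) at a mean TPM of at least 1, and leaving out each library. The text names every member, and from other lists the 2 most abundant and the 2 most changed genes called in *val1*, where any was. *STM*, *KNAT1*, *CLV3*, *LFY* and *AP1* are named outside this rule as checks of the tissue, and *CDKB1;1* and *CDC20.1* as the only genes of their list called in the *val2*-labelled libraries. The members and lists were chosen with earlier results of these data known. Plots were drawn with matplotlib 3.10.9.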

Additional observations from a re-analysis of the deposited data

How the results depend on the processing

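With a change of at least 2-fold required as well, 1 histone gene was called higher in *val1* (1 replication-coupled, 0 replacement). This was AT3G46320, whose log2 fold change was under 1 with DESeq2 (0.98). In the *val2*-labelled libraries 0 were called higher (0 and 0). In *val1* against the *val2*-labelled libraries 1 was called higher (0 and 0). Those called lower were 0 in all 3 comparisons. The number called higher in *val1* was 25 to 34 over the 9 other alternatives and 25 to 27 over the libraries left out. Library size scaling, which lifts the median of all genes, called 8 replacement variants higher in *val1* and 16 replication-coupled genes and 2 replacement variants higher in *val1* than in the *val2*-labelled libraries, and left 1 gene called lower in *val1*, 0 in the *val2*-labelled libraries and 1 in *val1* against the *val2*-labelled libraries. On log2(TPM + 1) and log2(TPM + 0.1), 1 gene was called lower in *val1* and 2 in *val1* against the *val2*-labelled libraries. *H1.3* was the gene called lower in the *val2*-labelled libraries, and DESeq2, no filter on low counts and the fit of only the 2 genotypes called 0. Over the libraries left out, 1 to 2 genes were called lower in *val1*. In the *val2*-labelled libraries, 12 to 24 were called higher (10 to 20 replication-coupled, 2 to 5 replacement) and 0 lower. In *val1* against the *val2*-labelled libraries, 4 to 14 were called higher (1 to 10 and 0 to 1) and 1 to 3 lower.

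Without H2A.X and H2A.W, the ratio of replication-coupled to replacement genes was 1.52 times as high in *val1* and 1.29 times in the *val2*-labelled libraries as in WT, and 1.18 times in *val1* as in the *val2*-labelled libraries. The H3.1 to H3.3 quotient of *val1* over the *val2*-labelled libraries ranged from 0.989 (without *val2* replicate 1) to 1.08. In *val1*, the H4 gene AT1G07660 turned to 0.033 with library size, and *HTR5* to 0.14 with library size and 0.10 and 0.11 on the TPM scales. In the *val2*-labelled libraries, *HTR5* turned to -0.0011 with DESeq2 and -0.0024 with its size factors. None of these was past the threshold, and the cause was not tested. Same-numbered libraries did not deviate together (correlations of 0.0309 to 0.0406). With a replicate block, 29 histone genes were called higher and 3 lower in *val1*, 25 and 1 in the *val2*-labelled libraries, and 14 and 5 in *val1* against the *val2*-labelled libraries. Over all genes, library size scaling called 8614 higher in *val1* against 4988 with TMM, 2807 against 1838 in the *val2*-labelled libraries and 5874 against 3748 between the mutants. On log2(TPM + 1) and log2(TPM + 0.1), 1183 and 900 were called lower in the *val2*-labelled libraries, against 2118. With 2 libraries per genotype, small differences in scarce genes such as *HTB7*, *HTB3* and *H1.3* were not detectable with certainty.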
